A study of Rattus norvegicus with 8 samples.

Results

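Macrophage genes were followed in the injured dorsal root ganglion (DRG) of rats given a histone deacetylase inhibitor (HDACI) or vehicle. The set holds 33 genes picked by name for their known expression in macrophages, by a rule that used no value, although earlier results of these arrays were known when they were picked. Of the 33 genes, 32 had a probe set that carried their symbol alone, out of 14497 genes named in this way and 28826 probe sets in all. Each of the 32 had exactly 1 such probe set. Msr1, a scavenger receptor, had none and was not measured here.

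All samples were ipsilateral L5 DRG of adult male Wistar rats, taken on day 14 after ligation and transection of the L5 spinal nerve, so the control animals carried the same nerve injury. The 4 HDACI rats received MS-275, an inhibitor of class I histone deacetylases, into the intrathecal space from an osmotic pump at 30 nmol per day, and the 4 vehicle rats received the solvent, DMSO in saline. The groups follow the sample titles and sources, since the treatment note attached to all 8 samples names MS-275. Each sample was 1 biological replicate on 1 Affymetrix Rat Gene 1.0 ST array, and values are log2 signals. The comparison asks whether transcript levels in the axotomized ganglion differed when the HDACI was infused around the spinal cord. Uninjured ganglia were not analysed here, so no value below describes the injury itself. The whole ganglion was extracted, so fewer cells of a type and less RNA per cell cannot be told apart.

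Macrophages reside among the sensory neurons and satellite glia of the DRG, depend on signals through the receptor Csf1r, and increase in number after a peripheral nerve is cut. Resident tissue macrophages carry the scavenger receptors Cd163 and Mrc1. Macrophages that clear debris and lipid make Trem2, Gpnmb and Lgals3. The factor PU.1, product of Spi1, sets up the myeloid programme by binding purine-rich DNA around a GGAA core.

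RefSeq promoter windows on assembly GRCr8, from 250 bases before to 50 bases after a gene's start, were found for 23 of the 33 genes. The letters GAGGAA, a form of the PU.1 core, were searched on both strands and stood in 16 of these 23 windows (69.6%), against 9239 of 33469 windows of the same length in the whole table (27.6%). They stood in 7 of 8 windows of pan-macrophage genes, in both phagocytic windows (Trem2 and Gpnmb) and in 1 of 2 resident windows. Of 4 lysosomal windows they stood in 3, those of Ctss, Lyz2 and Cd63. Among the remaining windows they stood in those of Cd14, Tlr4 and Cybb, and were absent from those of Tlr2, Cd83, Ncf1 and Spp1. The letters CACGTG, the E-box bound by the lysosomal regulator TFEB and by other factors, stood in 2 of 23 windows (8.7%), those of Ctsd and Cd63, against 6.42% of all windows. The Cd63 window held both motifs, without overlap. A match describes the letters and shows no binding. The windows below are of a pan-macrophage gene, a phagocytic gene, both resident genes and a lysosomal gene, since the values of these classes are compared further on. They read 5′ to 3′ on the gene's strand, and capitals mark GAGGAA, its reverse complement TTCCTC, or CACGTG. The Cd68 window is chr10:54882392-54882691 (minus strand), Trem2 chr9:20151730-20152029 (minus), Mrc1 chr17:82157475-82157774 (plus), Cd163 chr4:158770524-158770823 (plus) and Ctsd chr1:206968772-206969071 (minus).
Cd68: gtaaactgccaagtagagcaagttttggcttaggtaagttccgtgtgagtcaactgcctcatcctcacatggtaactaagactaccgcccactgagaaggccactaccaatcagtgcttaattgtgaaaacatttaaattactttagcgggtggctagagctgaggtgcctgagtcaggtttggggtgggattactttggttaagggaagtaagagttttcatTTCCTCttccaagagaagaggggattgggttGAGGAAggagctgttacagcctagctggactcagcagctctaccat
Trem2: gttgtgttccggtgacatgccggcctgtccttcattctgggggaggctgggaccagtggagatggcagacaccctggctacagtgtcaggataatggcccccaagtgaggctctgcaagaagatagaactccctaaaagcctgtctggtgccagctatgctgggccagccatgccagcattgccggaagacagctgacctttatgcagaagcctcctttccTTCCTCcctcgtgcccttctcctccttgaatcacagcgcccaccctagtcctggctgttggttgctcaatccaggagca
Mrc1: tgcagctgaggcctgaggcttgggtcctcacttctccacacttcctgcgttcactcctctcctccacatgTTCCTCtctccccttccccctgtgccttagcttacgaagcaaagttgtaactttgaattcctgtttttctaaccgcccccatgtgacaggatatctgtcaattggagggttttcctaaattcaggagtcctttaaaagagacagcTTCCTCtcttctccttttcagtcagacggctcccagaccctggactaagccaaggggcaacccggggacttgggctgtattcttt
Cd163: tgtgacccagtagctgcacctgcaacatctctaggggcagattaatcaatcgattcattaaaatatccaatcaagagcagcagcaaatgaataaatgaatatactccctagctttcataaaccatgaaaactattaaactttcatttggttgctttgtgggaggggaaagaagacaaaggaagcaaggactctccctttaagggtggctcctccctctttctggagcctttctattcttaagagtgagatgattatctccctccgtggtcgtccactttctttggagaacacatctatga
Ctsd: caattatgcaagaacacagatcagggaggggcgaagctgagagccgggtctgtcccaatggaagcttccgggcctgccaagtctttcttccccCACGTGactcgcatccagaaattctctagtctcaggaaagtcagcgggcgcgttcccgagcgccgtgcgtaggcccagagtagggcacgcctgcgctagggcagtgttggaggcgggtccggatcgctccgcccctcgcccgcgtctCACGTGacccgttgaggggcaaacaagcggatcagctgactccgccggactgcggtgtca

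The Cd68 and Mrc1 windows each held 2 copies of the PU.1 letters and the Trem2 window held 1. The Cd163 window held neither motif, and the Ctsd window held 2 copies of CACGTG. Ctsd is not typical of its class, since its window was the only 1 of the 4 lysosomal windows without the PU.1 letters.

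Array medians lay between 8.13 and 8.16. The neuronal markers Prph (peripherin) and Snap25 were bright on all arrays, between 12.71 and 12.98 and between 12.86 and 12.96. Other neuronal genes were lower or varied more, such as Scn10a (8.24 to 10.06) and Calca (9.91 to 11.92). The arrays differed in skeletal muscle transcripts. The mean over 17 measured muscle genes lay between 7.60 and 8.01 on the HDACI arrays, and was 10.96, 10.30, 7.78 and 9.33 on vehicle replicates 1 to 4. Vehicle replicate 3 alone among the vehicle arrays lay in the range of the HDACI arrays. All 17 muscle genes had a lower mean with HDACI, with a median log2 difference of -1.83. In limma 15 of the 17 had an unadjusted p under 0.05, beside 3.55% of all probe sets, and 0 passed an adjusted p of 0.05.

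No macrophage gene passed the test between HDACI and vehicle. With limma over all probe sets and Benjamini-Hochberg adjustment, 0 of 32 genes passed an adjusted p of 0.05, as did 0 of 28826 probe sets (0%). At an unadjusted limma p under 0.05 the count was again 0 of 32, beside 1022 of all probe sets (3.55%). The groups overlapped in all 32 genes, whereas they did not overlap in 2.1% of all probe sets. The adjusted p of every macrophage gene was 0.9998 (limma).

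Differences are given as HDACI minus vehicle on the log2 scale. They ranged from -0.09 for Lcp1 to 0.31 for Cd14, with a median of 0.06, against a median of 0.01 over all probe sets. The difference was above 0 in 29 of 32 genes and below 0 in Lcp1, Tlr4 and Ctsd, while it was above 0 in 53.1% of all named genes. In 30 of 32 genes it was smaller than the larger of the SDs within the groups, the exceptions being Lcp1 and Cd63. The 95% confidence interval stayed within a 1.5-fold change either way in 26 genes and within a 2-fold change in all 32.

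**Figure D1:**
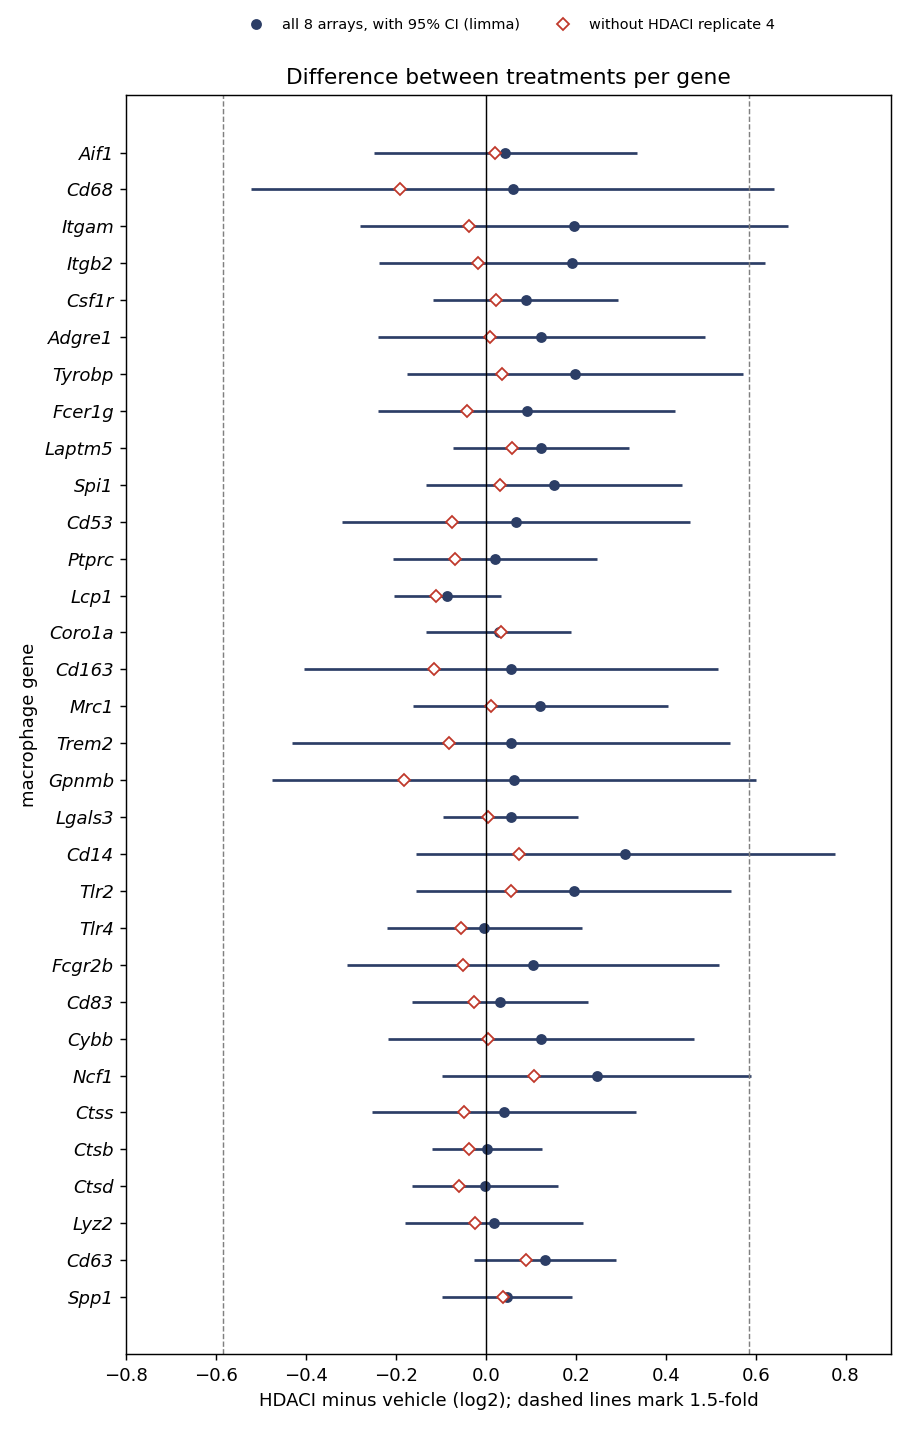
Difference between HDACI and vehicle for each of the 32 macrophage genes (x axis, log2), with filled points for all 8 arrays, bars for the 95% confidence interval from limma, open diamonds for the difference without HDACI replicate 4, and dashed lines at a 1.5-fold change. All 32 intervals cross 0, and 15 of the 32 diamonds lie above 0 against 29 of the filled points.

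HDACI replicate 4 stood apart from the other arrays. It was the highest of the 8 arrays in 25 of 32 genes, a place it took in 16.4% of all named genes. It was the lowest in 0 of the 32 genes and in 21.7% of all named genes, a larger share than any other array had. It was the highest HDACI array in 29 genes. The mean of HDACI replicates 1 to 3 lay above the vehicle mean in 15 of 32 genes. Without HDACI replicate 4, the median difference over the 32 genes was -0.02 in place of 0.06.

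Averaged over the 32 genes, and relative to each gene's mean over the 8 arrays, HDACI replicates 1 to 4 stood at -0.15, -0.10, 0.05 and 0.37. Vehicle replicates 1 to 4 stood at 0.09, -0.03, -0.13 and -0.11. HDACI replicate 4 was above the gene's mean in 31 genes, vehicle replicate 1 in 25 and HDACI replicate 3 in 19, whereas HDACI replicate 2 was above it in 2. The genes had a median range over the 8 arrays of 0.62, against 0.28 for all named genes. Their median level was also higher, at 10.43 against 8.87, and the 2 sets were not matched for level.

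**Figure D2:**
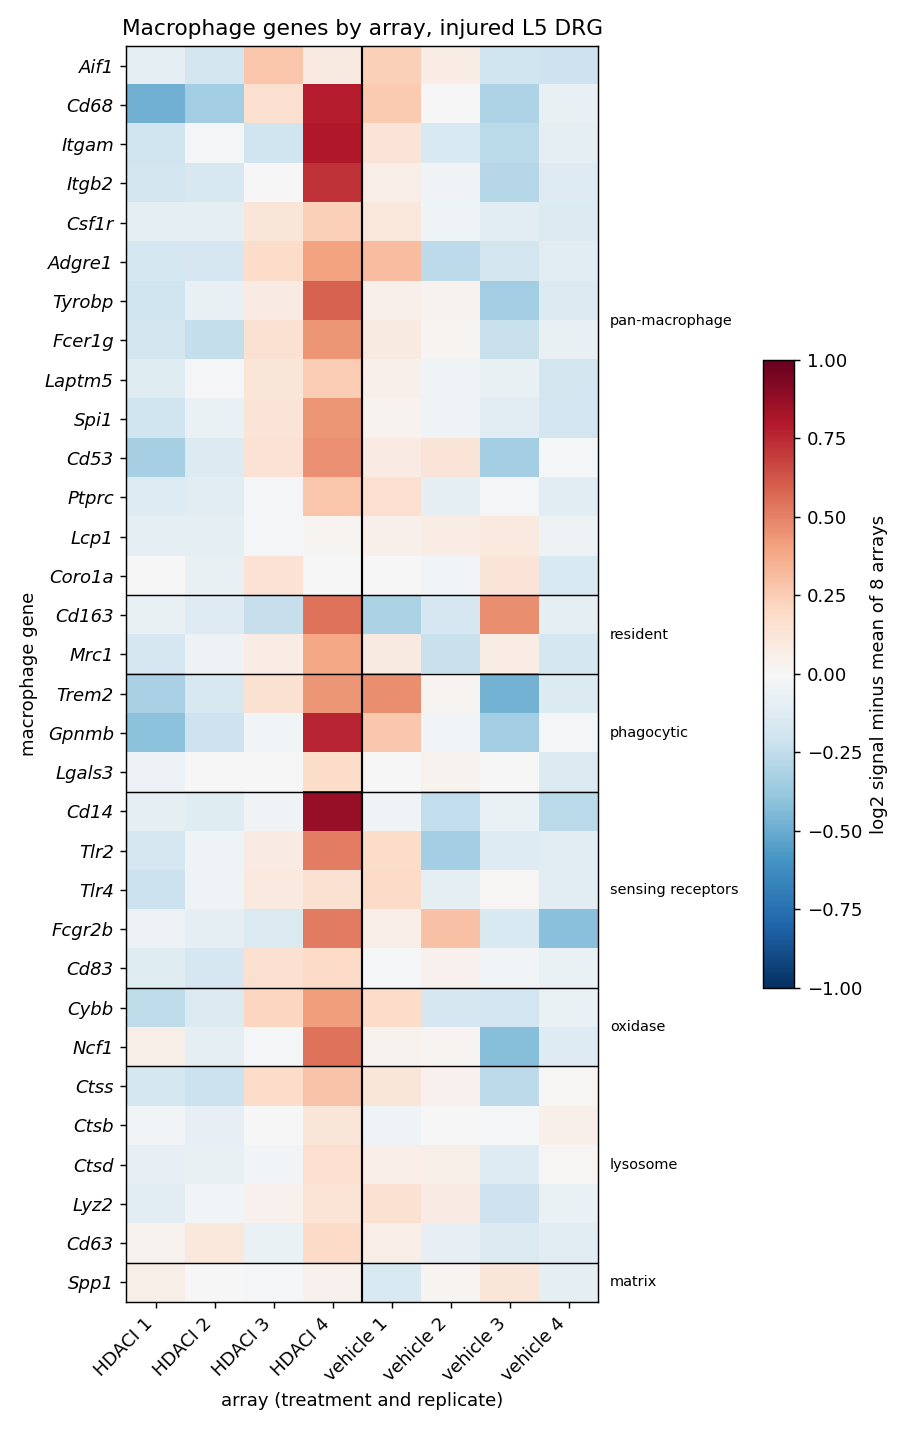
Log2 signal of each of the 32 macrophage genes (rows) on each array (columns, 4 HDACI and 4 vehicle), shown as the distance from that gene's mean over the 8 arrays and grouped by class. HDACI replicate 4 is above the mean in 31 of 32 genes, and vehicle replicates 3 and 4 are above it in 7 and 3.

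Among the 14 pan-macrophage genes, the difference was above 0 in 13 and its median was 0.09. Values are given below for replicates 1 to 4 of each group in order. Aif1, the calcium-binding protein Iba1 used to stain macrophages, read 8.86, 8.78, 9.24 and 9.05 with HDACI and 9.20, 9.04, 8.76 and 8.76 with vehicle. Both groups covered nearly the same range, and the difference was 0.04 ± 0.13 (SE), with a 95% interval from -0.25 to 0.34. Cd68, a lysosomal membrane glycoprotein of macrophages (probe set 10744127), read 10.23, 10.37, 10.88 and 11.50 with HDACI and 10.98, 10.71, 10.41 and 10.64 with vehicle. The lowest and the highest of the 8 arrays were both HDACI arrays, and the range of 1.26 was the widest of the set. The Cd68 difference was 0.06 ± 0.26, and -0.19 without HDACI replicate 4.

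Itgam and Itgb2 encode the paired chains of the complement receptor CR3. Itgam read 8.53, 8.71, 8.52 and 9.52 with HDACI and 8.85, 8.57, 8.45 and 8.62 with vehicle. Itgb2 read 9.66, 9.68, 9.85 and 10.56 with HDACI and 9.90, 9.81, 9.56 and 9.71 with vehicle. In both genes HDACI replicate 4 stood above the other 7 arrays, which lay close together. The differences were 0.20 ± 0.21 and 0.19 ± 0.19, and turned to -0.04 and -0.02 without that array.

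Csf1r, the receptor for the survival factors Csf1 and Il34, read 11.23, 11.24, 11.45 and 11.57 with HDACI and 11.44, 11.29, 11.22 and 11.19 with vehicle. Its range of 0.38 was narrower than that of Cd68, and the difference was 0.09 ± 0.09. Spi1, which encodes PU.1, read 9.06, 9.19, 9.39 and 9.70 with HDACI and 9.30, 9.22, 9.15 and 9.07 with vehicle. HDACI replicate 1 was the lowest array and HDACI replicate 4 the highest. The Spi1 difference was 0.15 ± 0.13.

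Tyrobp, the adaptor that carries the signal of Trem2 and other receptors, read 11.16, 11.28, 11.43 and 11.94 with HDACI and 11.41, 11.39, 11.01 and 11.22 with vehicle. Its difference was 0.20 ± 0.16, the largest of this class, with a 95% interval from -0.18 to 0.57. Fcer1g, the shared gamma chain of Fc receptors, lay between 11.49 and 12.16 and had a difference of 0.09 ± 0.15. Adgre1, the F4/80 antigen, lay between 9.57 and 10.24 with a difference of 0.12 ± 0.16. Laptm5, a lysosomal protein of blood-derived cells, lay between 10.47 and 10.91 with a difference of 0.12 ± 0.09.

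The remaining genes of this class are shared by most leukocytes. Cd53, a tetraspanin, lay between 10.87 and 11.67, and Ptprc, the CD45 phosphatase, between 9.50 and 9.91. Their differences were 0.07 ± 0.17 and 0.02 ± 0.10. Coro1a, an actin-binding coronin, lay between 9.45 and 9.75 with a difference of 0.03 ± 0.07. Lcp1, the actin bundler L-plastin, read 12.17, 12.17, 12.25 and 12.30 with HDACI and 12.32, 12.34, 12.36 and 12.21 with vehicle. In Lcp1 3 of 4 vehicle arrays stood above every HDACI array, and the difference was -0.09 ± 0.05, with an exact two-sided permutation p of 0.114 over the 70 relabellings of the arrays, of which the smallest possible is 0.0286.

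The resident markers had differences of 0.06 and 0.12. Cd163, the haemoglobin-haptoglobin scavenger receptor (probe set 10858626), read 7.90, 7.84, 7.74 and 8.51 with HDACI and 7.65, 7.80, 8.43 and 7.88 with vehicle. In each group 1 array stood high, HDACI replicate 4 and vehicle replicate 3, and the other 6 arrays lay between 7.65 and 7.90. The Cd163 difference was 0.06 ± 0.20, with a 95% interval from -0.41 to 0.52. Mrc1, the mannose receptor CD206 (probe set 10796476), read 9.44, 9.57, 9.68 and 10.00 with HDACI and 9.70, 9.39, 9.69 and 9.44 with vehicle. HDACI replicate 4 was again the highest, and vehicle replicates 1 and 3 and HDACI replicate 3 followed with nearly equal values. The Mrc1 difference was 0.12 ± 0.13, with a 95% interval from -0.16 to 0.40.

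The phagocytic markers differed by 0.06, 0.06 and 0.05. Trem2, a lipid-sensing receptor (probe set 10926245), read 9.89, 10.05, 10.36 and 10.65 with HDACI and 10.68, 10.24, 9.74 and 10.07 with vehicle. Vehicle replicate 1 was the highest array and vehicle replicate 3 the lowest, so the vehicle group spanned the whole range. The difference was 0.06 ± 0.21. Gpnmb, a transmembrane glycoprotein of lipid-laden phagocytes (probe set 10855449), read 11.89, 12.09, 12.27 and 13.06 with HDACI and 12.57, 12.27, 11.95 and 12.28 with vehicle. HDACI arrays were both the lowest and the highest, and the difference was 0.06 ± 0.24, or -0.18 without HDACI replicate 4.

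Lgals3, the secreted lectin galectin-3 (probe set 10779673), read 12.45, 12.51, 12.50 and 12.69 with HDACI and 12.51, 12.54, 12.51 and 12.36 with vehicle. Of the 8 values, 6 lay between 12.45 and 12.54. The Lgals3 difference was 0.05 ± 0.07, with a 95% interval from -0.09 to 0.20.

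The class means differed between treatments by less than the spread between arrays. Averaged over its genes per array, the pan-macrophage class differed by 0.09, the resident class by 0.09 and the phagocytic class by 0.06. The SDs between arrays of a group were 0.12 to 0.31 for these class means. The resident mean minus the phagocytic mean was 0.02 ± 0.11 (SD, n = 4) with HDACI and -0.02 ± 0.39 (SD, n = 4) with vehicle. No test was made of these class means.

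The resident and phagocytic class means parted within the vehicle group. In vehicle replicate 3 the resident class stood at 0.27 relative to the mean of the 8 arrays while the phagocytic class stood at -0.27. In vehicle replicate 1 they stood at -0.11 and 0.25. In HDACI replicate 4 both stood at about the same height, 0.47 and 0.46. The resident minus phagocytic value was -0.36, -0.21, 0.54 and -0.03 on vehicle replicates 1 to 4, and lay between -0.12 and 0.14 on the HDACI arrays. The resident class holds 2 genes, and its part in this came mostly from Cd163. On vehicle replicates 1 and 3 Cd163 read 7.65 and 8.43, against its mean of 7.97. Mrc1 read 9.70 and 9.69 there, against its mean of 9.61, and Lgals3 read 12.51 on both. The 7 further resident genes described below stood at 0.07 and -0.005 on these arrays. The 19 further phagocytic and lipid genes stood at 0.06 and -0.11.

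Relative to its mean over the arrays, the muscle list stood at 2.22, 1.56, -0.96 and 0.59 on vehicle replicates 1 to 4, so the vehicle array with the least muscle signal had the highest resident minus phagocytic value. The HDACI arrays, at -0.73 to -1.14, had no such values. With the muscle score as a covariate the resident median was -0.18 in place of 0.09 and the phagocytic median was 0.27 in place of 0.06. Cd163 then had a difference of -0.40 and Trem2 one of 0.46, and the adjusted p of both was 0.9994 (limma). Both genes lay further from 0 than the medians of their classes. The score was low on all HDACI arrays and varied mostly among the vehicle arrays. It is therefore partly confounded with treatment, and the adjusted values lean on the vehicle arrays. The part of muscle tissue in these results was not tested.

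**Figure D3:**
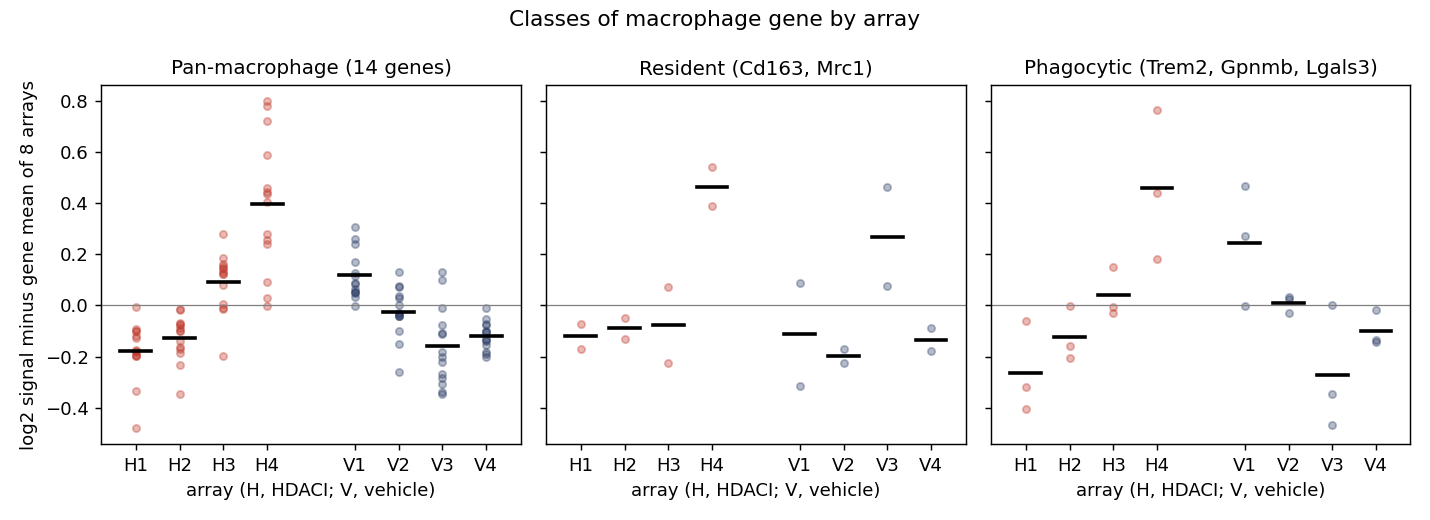
Pan-macrophage, resident and phagocytic genes on each array (x axis, HDACI replicates H1 to H4 and vehicle replicates V1 to V4), as log2 signal relative to the gene's mean over the 8 arrays (y axis), with 1 point per gene and a bar for the class mean. All 3 bars of HDACI replicate 4 lie between 0.40 and 0.47, and in vehicle replicate 3 the resident bar is at 0.27 and the phagocytic bar at -0.27.

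The next class holds receptors by which macrophages sense microbes and immune complexes, and also Cd83. Its median difference was 0.10, above 0 in 4 of 5 genes. Cd14, the co-receptor for lipopolysaccharide, read 8.76, 8.73, 8.81 and 9.72 with HDACI and 8.81, 8.60, 8.79 and 8.58 with vehicle. Of these values, 7 lay between 8.58 and 8.81, and HDACI replicate 4 stood apart at 9.72. The difference of 0.31 ± 0.21 was the largest of the set, a 1.24-fold change with a 95% interval from 0.898 to 1.71, and it was 0.07 without that array. Tlr4, which signals with Cd14, lay between 8.86 and 9.27 and its difference was near 0 (95% interval from -0.22 to 0.21).

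Tlr2, the receptor for bacterial lipoproteins, lay between 7.33 and 8.18 with a difference of 0.19 ± 0.15. Fcgr2b, the inhibitory Fc receptor, read 9.44, 9.40, 9.35 and 10.01 with HDACI and 9.56, 9.79, 9.34 and 9.08 with vehicle. Its difference was 0.10 ± 0.18, or -0.05 without HDACI replicate 4. Cd83, a surface protein of activated antigen-presenting cells, lay between 8.50 and 8.85 with a difference of 0.03 ± 0.09.

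The phagocyte oxidase makes superoxide. Its membrane subunit Cybb (gp91phox) read 11.15, 11.26, 11.62 and 11.82 with HDACI and 11.59, 11.23, 11.21 and 11.34 with vehicle, and the difference was 0.12 ± 0.15. Its cytosolic subunit Ncf1 (p47phox) read 8.97, 8.81, 8.90 and 9.46 with HDACI and 8.95, 8.94, 8.49 and 8.78 with vehicle. In Ncf1, HDACI replicate 4 was the highest and vehicle replicate 3 the lowest array, and the difference was 0.25 ± 0.15 (95% interval from -0.10 to 0.59). It was 0.11 without HDACI replicate 4.

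Lysosomal and degradative genes had a median difference of 0.02. Ctss, a cathepsin largely of antigen-presenting cells, lay between 11.32 and 11.86 with a difference of 0.04 ± 0.13. Lyz2, the bactericidal enzyme lysozyme, lay between 12.89 and 13.25 with a difference of 0.02 ± 0.09. Ctsb and Ctsd, cathepsins made by most cells, lay between 13.66 and 13.86 and between 12.58 and 12.88. Their 95% intervals ran from -0.12 to 0.12 and from -0.16 to 0.16.

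Cd63, a tetraspanin of late endosomes in many cell types, read 11.94, 12.01, 11.84 and 12.09 with HDACI and 11.97, 11.83, 11.77 and 11.80 with vehicle. The 3 lowest arrays were vehicle arrays, and vehicle replicate 1 lay within the HDACI range. The difference was 0.13 ± 0.07, with an exact permutation p of 0.114. It was 0.09 without HDACI replicate 4, and it passed an unadjusted limma p of 0.05 without HDACI replicate 3 (0.18) and without vehicle replicate 1 (0.17).

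Spp1, the matrix protein osteopontin, which sensory neurons also make, read 12.61, 12.56, 12.53 and 12.60 with HDACI and 12.40, 12.58, 12.67 and 12.46 with vehicle. The HDACI values lay within the vehicle range, and the difference was 0.05 ± 0.06. Its highest array was vehicle replicate 3, as in Lcp1.

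The genes differed in how far they spread between arrays. The range over the 8 arrays was above 0.8 in 11 genes, which were Cd68, Itgam, Itgb2, Tyrobp, Cd163, Trem2, Gpnmb, Cd14, Tlr2, Fcgr2b and Ncf1. It was under 0.4 in 10 genes, among them Ctsb, Ctsd, Cd63, Spp1 and Lgals3, which other cells of the ganglion also make. Csf1r, Lcp1, Coro1a, Cd83 and Lyz2 were the others with a narrow range. The 7 genes in which HDACI replicate 4 was not the highest array were Aif1, Lcp1, Coro1a, Trem2, Tlr4, Lyz2 and Spp1.

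Another 66 measured genes of macrophage biology, of 74 listed, were tested in the same way. HDACI replicate 4 was the top array in 45 of these 66. Their median difference was 0.08, above 0 in 56 and below 0 in 10, beside 53.1% above 0 among all named genes, and 0 passed an adjusted p of 0.05 in limma. Without HDACI replicate 4 the median was -0.01, above 0 in 27 and below 0 in 39. By list, the difference was above 0 in 5 of 5 growth factors and receptors, 6 of 7 further resident genes, 16 of 19 further phagocytic and lipid genes and 2 of 4 monocyte genes. It was above 0 in 12 of 13 myeloid signalling genes, 6 of 7 complement and Fc receptor genes, both other oxidase subunits and 7 of 9 myeloid transcription factors. The list medians lay between 0.02 (transcription factors) and 0.17 (oxidase subunits), and without HDACI replicate 4 between -0.05 (phagocytic and lipid genes) and 0.07 (growth factors and receptors).

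At an unadjusted limma p under 0.05 there were 2 of these 66 genes, a share near the 3.55% of all probe sets. Cebpa, a transcription factor of myeloid cells and of adipocytes, read 8.91, 8.89, 9.01 and 8.97 with HDACI and 8.86, 8.80, 8.77 and 8.85 with vehicle. Every HDACI array stood above every vehicle array, a separation seen in 1.01% of all probe sets. The difference was 0.13 ± 0.05, with an exact permutation p of 0.0286, the smallest these arrays can give. Fabp5, a fatty acid carrier, read 10.90, 10.79, 10.71 and 10.81 with HDACI and 10.90, 10.94, 10.96 and 10.92 with vehicle. Its difference was -0.12 ± 0.05, with an exact permutation p of 0.0571. The adjusted p of both was 0.9998 (limma).

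The other genes with the smallest p of their list had differences between -0.19 and 0.36. Csf1, the ligand of Csf1r, differed by 0.07 ± 0.05 and Csf2ra, a chain of the GM-CSF receptor, by 0.14 ± 0.12, or by 0.01 without HDACI replicate 4. Among resident genes, Cd4, which rat macrophages carry, differed by 0.19 ± 0.12 and F13a1, the coagulation factor XIII subunit, by 0.21 ± 0.17. Axl, a receptor for the uptake of dying cells, differed by 0.09 ± 0.05. Of monocyte genes, Plac8 differed by 0.36 ± 0.18 and Vcan, the proteoglycan versican, by 0.26 ± 0.33. Without HDACI replicate 4 these values were 0.19 and -0.07.

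Ptpn6 and Plcg2, a phosphatase and a phospholipase of myeloid signalling, differed by 0.12 ± 0.08 and 0.10 ± 0.09. C5ar1, the receptor for complement C5a, differed by 0.27 ± 0.15 (0.11 without HDACI replicate 4) and Fcgr3a, an activating Fc receptor, by -0.19 ± 0.11. The oxidase subunits Cyba and Ncf4 both differed by 0.17, with SEs of 0.12 and 0.13, and by 0.05 and 0.07 without HDACI replicate 4. Nr1h3, the sterol-sensing receptor LXR alpha, differed by 0.09 ± 0.08. Without HDACI replicate 4 Nr1h3 differed by 0.05, Ptpn6 by 0.07 and Cd4 by 0.12. Other arrays also lowered some of these values. Ncf4 differed by 0.07 without vehicle replicate 4, Nr1h3 by 0.04 and Vcan by 0.14 without vehicle replicate 2, and Plcg2 by 0.05 without HDACI replicate 3 or vehicle replicate 1. F13a1 differed by 0.07 and Fcgr3a by -0.10 without HDACI replicate 2, Cd4 by 0.12 without HDACI replicate 3, and Vcan by 0.16 without vehicle replicate 4 and Csf1 by 0.05 without vehicle replicate 1. On all 8 arrays none of these genes passed an unadjusted limma p of 0.05.

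Acp5, from the osteoclast list, and Ctsk and Mmp12, from the further phagocytic and lipid genes, also stood apart on HDACI replicate 4. Acp5, the tartrate-resistant acid phosphatase of osteoclasts and some macrophages, read 9.12, 9.22, 9.23 and 10.96 with HDACI and 8.96, 8.82, 9.10 and 9.18 with vehicle. Calcr, the calcitonin receptor of osteoclasts, lay between 6.33 and 6.59 and was lowest on that array. Its level was low, at the 22.8th percentile of all probe sets, so its order among the arrays says little. Only 2 of the 5 listed osteoclast genes, Acp5 and Calcr, were measured. Ctsk, a collagen-degrading cathepsin, read 10.27, 10.64, 10.52 and 12.34 with HDACI and 10.82, 10.20, 10.50 and 10.26 with vehicle. Mmp12, macrophage elastase, read 7.84, 8.52, 8.53 and 10.53 with HDACI and 8.36, 8.33, 8.36 and 9.005 with vehicle. Acp5, Ctsk and Mmp12 were chosen after their values were seen, and HDACI replicate 4 was the highest array in each.

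The 6 fibroblast genes averaged 0.36 above their means on HDACI replicate 4, and the 5 myelinating Schwann cell genes averaged -0.33, the lowest of the 8 arrays. Mbp, a myelin protein, read 12.27 on that array and between 12.54 and 12.81 on the others. The mean level of the fibroblast list was 12.19 to 12.66 with HDACI and 12.004 to 12.42 with vehicle. That of the Schwann cell list was 11.76 to 12.27 with HDACI and 12.06 to 12.17 with vehicle. Differences were above 0 in 6 of 6 fibroblast genes (median 0.16, or 0.07 without HDACI replicate 4). They were above 0 in 5 of 7 endothelial genes (median 0.11, or 0.09 without that array). The lists of neutrophils, T cells and satellite glia stood at 0.05, 0.06 and 0.04 on HDACI replicate 4. Proliferation, endothelial and dendritic cell lists stood at 0.23, 0.15 and 0.11 on it. Sensory neuron, axotomy response and B cell lists stood at -0.15, -0.14 and -0.17, and mast cell, erythroid and adipocyte lists at -0.13, -0.10 and -0.05. The 4 measured microglia markers stood at 0.23 there and 0.19 on vehicle replicate 1. Among them Tmem119 read 9.35 on HDACI replicate 4 and between 8.42 and 8.77 on the others. Gpr34 read 9.12 on HDACI replicate 4 and 9.27 on vehicle replicate 1, and P2ry12 lay between 9.72 and 10.08. Sall1 lay between 6.43 and 6.67 on all arrays, a low level at the 23.6th percentile of all probe sets. The part of these other cell types in the macrophage values was not tested.

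**Figure D4:**
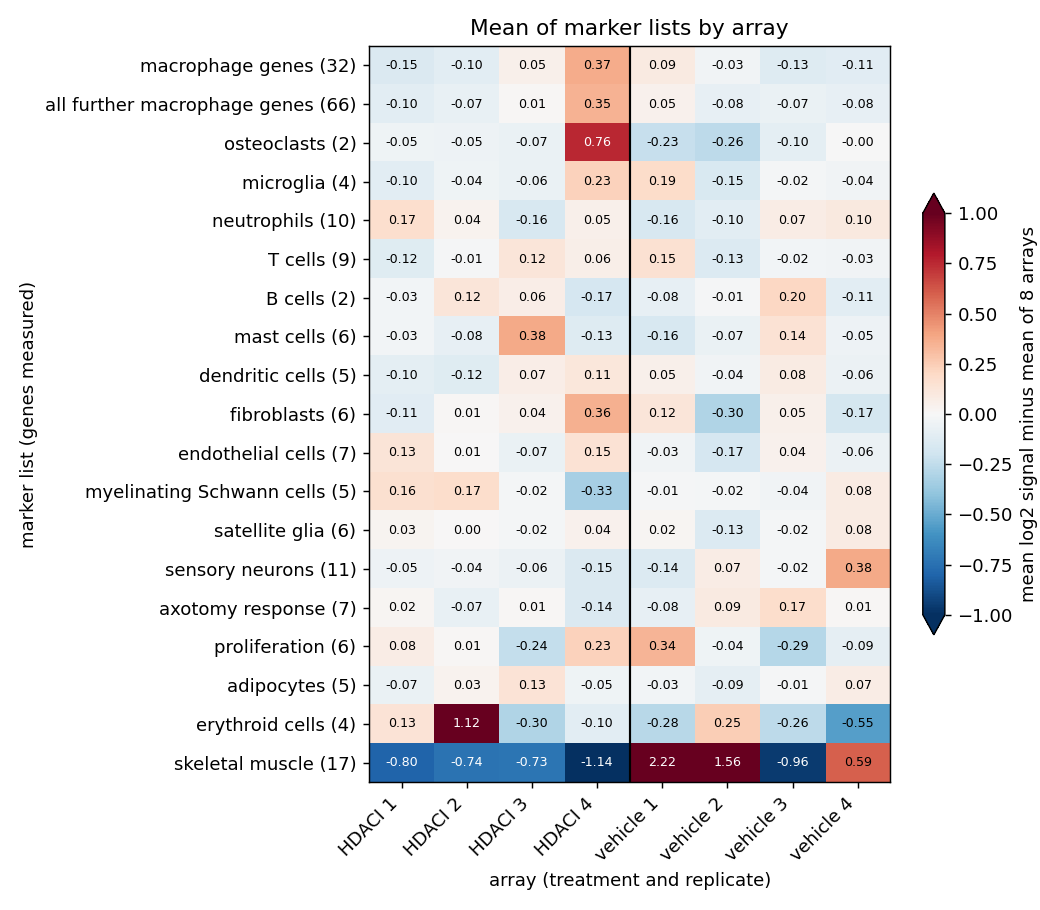
Mean log2 signal of marker lists (rows, with the number of genes measured) on each array (columns), relative to each gene's mean over the 8 arrays, with the value printed in each cell. On HDACI replicate 4 macrophage genes stand at 0.37 and fibroblast genes at 0.36, and the osteoclast list at 0.76 through Acp5 alone. Calcr, the other osteoclast gene measured, is low on all arrays. Myelinating Schwann cell genes stand at -0.33 and skeletal muscle genes at -1.14 on HDACI replicate 4.

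Sensory neuron genes had differences below 0 in all 11 measured, with a median of -0.10, and none passed an unadjusted limma p of 0.05. Without vehicle replicate 4 the median was -0.05 and the difference was below 0 in 9 of 11. Their mean deviation was 0.38 on vehicle replicate 4, and Scn10a, a sodium channel of nociceptors, read 10.06 there and between 8.24 and 8.74 on the other arrays. On that array macrophage genes stood at -0.11.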

How the data were processed

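RNA of 8 injured L5 DRG, which the methods call biological replicates with 4 per group, was hybridized to Affymetrix Rat Gene 1.0 ST arrays. The deposited log2 signals were made by the authors with RMA in the package oligo, whose versions are not given in the sources used here. The method corrects background, normalizes arrays to common quantiles and summarizes probes. A shift of all transcripts together would therefore be hidden.

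Gene names came from the platform annotation. Of 28826 probe sets, 15209 carried 1 symbol, 306 several and 13311 none. The current RefSeq symbol of the gene ID was the same for all 32 measured macrophage genes. Where a gene had several probe sets, that with the highest mean was taken.

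Two-sided tests of HDACI minus vehicle used lmFit and eBayes of limma 3.58.1 (R 4.3.3) on all 8 arrays without covariates, and p values were adjusted over the 28826 probe sets after Benjamini and Hochberg. For single genes an exact permutation test of the difference in means over the 70 relabellings was added. The fit was tested on simulated data with independent noise for each probe set and added differences larger than that of any macrophage gene. It therefore does not cover small differences or genes that vary together. Named were all 33 genes and, of each further macrophage list, up to 2 genes with the smallest unadjusted p. Others were chosen after their values were seen. The macrophage genes and all lists were chosen with earlier results of these data known, and lists are described by counts and medians with no test. At most 0.0486% of values were equal between 2 arrays, so no array was a copy. Alternatives were each array left out, vehicle replicates 1 and 2 left out, the replicate number as a block, a muscle score as covariate, filters, normalizations, a variance trend, array weights and averaged probe sets. Arrays carry no read depth, and their number limits the precision. Promoter windows were read from RefSeq, and genomic positions of probes were not used here.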

Additional observations from a re-analysis of the deposited data

Results flagged for a closer look

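Of 64 groups of 4 arrays for the macrophage genes and 40 for the other genes named, 9 held an array whose gap to its nearest neighbour, as a share of the group's range, was past Dixon's 95% critical value, and chance gives this in about 1 of 20 groups. Of the 9, 2 belonged to the 64 groups of the macrophage genes. These groups share the same 8 arrays and are not independent, so their count cannot be set against the chance rate. Another 4 of the 9 belonged to Acp5, Atp6v0d2 and Mmp12, which were chosen after their values were seen. The chance rate cannot be applied to them either. HDACI replicate 4 read 9.72 for Cd14 (next array of the group 8.81), 10.01 for Fcgr2b (next 9.44), 10.31 for C5ar1 (next 9.76), 10.96 for Acp5 (next 9.23) and 8.62 for Atp6v0d2, a subunit of the vacuolar proton pump (next 6.51). Vehicle replicate 1 stood apart at 7.45 for Atp6v0d2 (next 6.30) and at 11.56 for Cd4 (next 11.32). Vehicle replicate 3 stood apart at 7.15 for F13a1 (next 6.71), and vehicle replicate 4 at 9.005 for Mmp12 (next 8.36). Without HDACI replicate 4 the differences for Cd14 and Fcgr2b were 0.07 and -0.05.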

How the results depend on the processing

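The number of macrophage genes past an adjusted p of 0.05 was 0 under every alternative run (limma), and so was that of all probe sets. With array weights the difference was above 0 in 17 of 32 genes in place of 29. Lcp1 and Cd63 then passed an unadjusted limma p of 0.05, at an adjusted p of 0.701. With the muscle score as covariate the resident median was -0.18 in place of 0.09. The causes were not tested. When each array was left out in turn, the number of genes above 0 lay between 15 (without HDACI replicate 4) and 31, and was 22 without vehicle replicate 3. The median over the genes then lay between -0.02 and 0.15, that of the pan-macrophage class between -0.00 and 0.19, that of the resident class between -0.05 and 0.19, and that of the phagocytic class between -0.08 and 0.17. Each lowest value came without HDACI replicate 4. The phagocytic median was also below 0 without vehicle replicate 3, at -0.04. Lcp1 passed an unadjusted limma p of 0.05 without vehicle replicate 4 (difference -0.12). Without vehicle replicates 1 and 2 the median was 0.19, and the resident median was -0.02. Median centring and cyclic loess gave 28 and 30 genes above 0. With the replicate number as a block, the difference was above 0 in 29 genes, the median stayed at 0.06 and no call changed. Arrays with the same number did not deviate together over all probe sets (correlations of -0.04, 0.01, 0.01 and -0.28). Those of unlike number had correlations between -0.30 and 0.34. Over the macrophage genes alone the same-number correlations were -0.64, -0.05, -0.30 and 0.15. Such correlations cannot show whether samples of the same number were paired in the experiment. Leaving out arrays for the 66 further macrophage genes and the cell type lists was added after the data were seen, and the median over the 66 lay between -0.01 and 0.13.

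With 4 arrays per group, the 95% intervals reached a 1.71-fold change for Cd14. Binding of probe sets to related transcripts, such as those of other Fc receptors, was not checked here.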
